A study of Mus musculus with 18 samples.

Results

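Imprinted genes were described in mice that carried an inducible histone H3 with lysine 36 or lysine 9 replaced by methionine, and in wild-type mice. The set held 40 genes known to be imprinted in the mouse, chosen by symbol. Of these, 36 had a gene ID in the count tables, which listed 37620 gene IDs, and Rian, Mirg, Kcnq1ot1 and Snrpn were not analysed here. RNA-seq libraries came from Lin-, cKit+ bone marrow cells (blood stem and progenitor cells), from dissociated intestine and from dissociated testes. Each tissue had K36M, K9M and WT groups with 2 libraries each, which gave 18 libraries in 9 groups. All mice, WT included, were C57B6/129 hybrids aged 6 to 8 weeks, and induction was with 2 mg/ml doxycycline in the drinking water. Per the labels, both sexes were used. Which H3 gene carries the change, what drives it and how long doxycycline was given are not stated in the labels. The same 6 mice gave intestine and testes (named by genotype and number: K36M.1485 and K36M.1553, K9M.1516 and K9M.1519, WT.1476 and WT.1477), and 6 other mice gave marrow. Mice that gave testes were male, so females can be among the marrow mice alone, and sex was not used in any test. Libraries held 13396303 to 21417915 reads assigned to genes.

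An imprinted gene is expressed mainly from the allele inherited from one parent. The choice is laid down in the egg or the sperm as DNA methylation of control regions, and afterwards zinc finger proteins such as ZFP57, with TRIM28 and H3K9 methyltransferases, keep that methylation in place. Methylated H3K36 is bound by the DNA methyltransferases DNMT3A and DNMT3B, and an H3 with methionine at position 36 or 9 inhibits the enzymes that methylate that site. Many imprinted genes act on growth: IGF2 promotes it, IGF2R clears IGF2, and GRB10 and PHLDA2 restrain it. The counts do not separate the parental alleles, so every value below is the sum of both. The parental classes used below were assigned by gene and not measured. Whether each gene is imprinted in these tissues was not tested. In these bulk samples, fewer cells of a type and less RNA per cell cannot be told apart.

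The promoters of 4 genes are printed because these 4 had the 4 largest rises among the imprinted genes tested in K36M marrow. They come from RefSeq on GRCm38.p6 and run from 250 bases before to 50 bases after the start, 5′ to 3′ on the gene's strand, with each CG dinucleotide, the site of DNA methylation, in capitals. Peg3 (chr7:6730370-6730669, minus strand) encodes a zinc finger protein expressed from the paternal allele. Ndn (chr7:62348027-62348326, plus strand) encodes necdin, a paternally expressed MAGE family protein. Phlda2 (chr7:143502475-143502774, minus strand) encodes a maternally expressed protein that restrains growth of the placenta. Meg3 (chr12:109540746-109541045, plus strand, the first of its listed promoters) is a maternally expressed long non-coding RNA.
Peg3: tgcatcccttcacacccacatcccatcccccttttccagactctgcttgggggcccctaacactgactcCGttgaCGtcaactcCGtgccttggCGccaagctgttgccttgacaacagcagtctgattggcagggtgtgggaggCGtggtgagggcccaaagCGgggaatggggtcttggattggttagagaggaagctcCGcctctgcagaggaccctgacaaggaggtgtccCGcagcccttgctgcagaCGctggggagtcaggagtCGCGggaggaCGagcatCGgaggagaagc
Ndn: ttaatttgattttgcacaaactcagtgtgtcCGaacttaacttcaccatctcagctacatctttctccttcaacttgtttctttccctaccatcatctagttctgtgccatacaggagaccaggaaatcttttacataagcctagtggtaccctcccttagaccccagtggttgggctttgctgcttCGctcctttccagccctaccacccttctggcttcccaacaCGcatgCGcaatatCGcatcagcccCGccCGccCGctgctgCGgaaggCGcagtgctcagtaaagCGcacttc
Phlda2: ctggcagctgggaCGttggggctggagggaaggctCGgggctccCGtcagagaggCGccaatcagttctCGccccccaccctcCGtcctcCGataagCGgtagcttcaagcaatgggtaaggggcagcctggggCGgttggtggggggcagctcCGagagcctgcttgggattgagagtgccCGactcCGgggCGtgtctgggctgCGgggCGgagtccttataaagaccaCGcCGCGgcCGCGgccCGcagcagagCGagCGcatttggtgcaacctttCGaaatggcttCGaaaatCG
Meg3: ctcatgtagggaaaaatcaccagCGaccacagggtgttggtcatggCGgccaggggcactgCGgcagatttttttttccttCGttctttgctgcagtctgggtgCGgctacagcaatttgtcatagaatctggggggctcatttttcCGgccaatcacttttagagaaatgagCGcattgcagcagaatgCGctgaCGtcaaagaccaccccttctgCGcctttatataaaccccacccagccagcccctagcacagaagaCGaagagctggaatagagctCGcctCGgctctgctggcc

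Phlda2 had 26 CG dinucleotides in its window, Peg3 and Meg3 had 13 each, and Ndn had 11. Over the 53 promoters listed for 34 of the 40 genes the median was 11, and over all 32851 promoters of the same length it was 7. The letters TGCCGC, the core of the motif bound by the methylated-DNA reader ZFP57, were searched on both strands. They occurred in 12 of the 53 imprinted gene promoters (22.6%) and in 11.6% of all promoters. Overlapping windows of a gene were each counted, such as those of Mest that begin at chr6:30737800 and chr6:30737803, both with matches. The motif itself holds a CG, and the part of the higher CG count in this difference was not tested. The printed Meg3 window held 1 match, and the Peg3, Ndn and Phlda2 windows held none, which says only that these letters are not in these windows. The Peg3 promoter also lies across that of Usp29, a ubiquitin protease gene of the same domain on the other strand. Their starts were 164 bases apart and 263 bases were common to both windows, with all 13 CG dinucleotides of Peg3 among them.

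**Figure D1:**
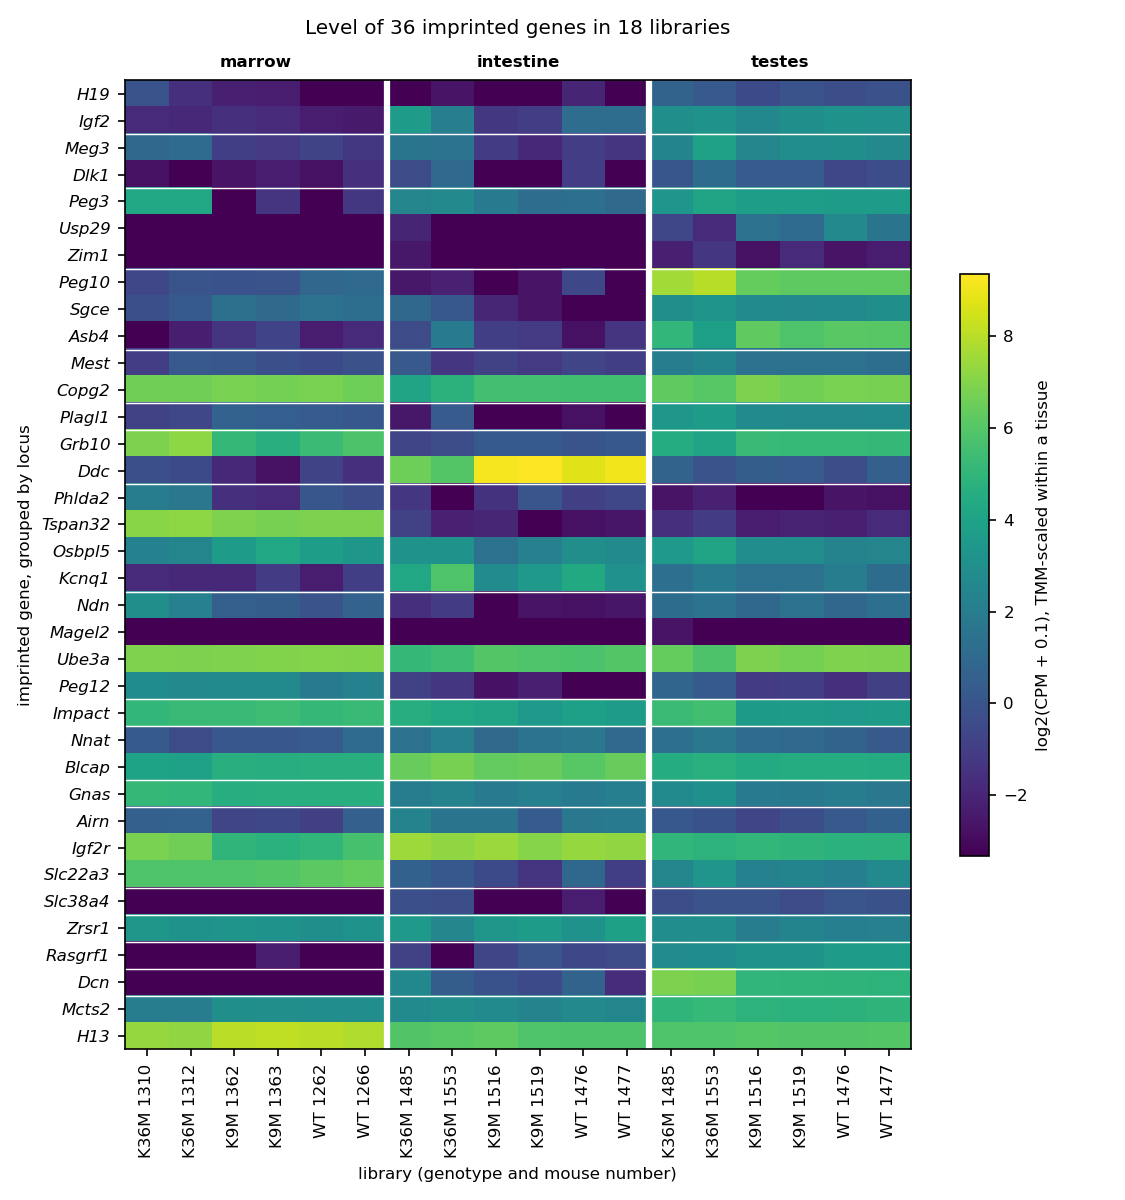
Level of the 36 counted imprinted genes (rows, grouped by locus) in the 18 libraries (columns, K36M left, then K9M, then WT within each tissue), as log2(CPM + 0.1), where CPM is read counts per library total, with TMM scaling within a tissue. Peg3 is bright in both K36M marrow libraries and dark in the other 4 marrow libraries, and Ddc is brightest in intestine.

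The tissue labels were checked against marker genes. Summed levels of 7 epithelial markers were 16460 to 26010 CPM in intestine, at most 7.04 in marrow and at most 44.7 in testes. Summed levels of 7 spermatid markers were 12300 to 38100 CPM in testes. Intestine of WT.1476 also had 253.5 CPM of those spermatid markers, against 9.77 CPM in WT.1477. Summed levels of 10 stem and progenitor markers were 670 and 688 CPM in K36M marrow, 1268 and 1301 CPM in K9M marrow, and 1063 and 1043 CPM in WT marrow. No 2 libraries of a group held identical counts. CPM values here are scaled within a tissue (TMM), and a call is an adjusted p under 0.05 over all genes tested in that comparison (edgeR quasi-likelihood, Benjamini-Hochberg).

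In WT mice each tissue had its own set of abundant imprinted genes. Levels between genes are given per kilobase of merged exon. In WT marrow H13, which encodes signal peptide peptidase, was first with 27.6 ± 3.0 CPM per kb (SD, n = 2 for each value of this paragraph). Next were the coat protein gene Copg2 (20.1 ± 2.05), the blood cell tetraspanin Tspan32 (18.6 ± 0.158) and the cation transporter Slc22a3 (17.0 ± 1.60), whose neighbours in this order did not differ beyond their spread. Blcap, the gene in which Nnat lies, followed with 8.203 ± 0.0891 CPM per kb. In WT intestine Ddc, the enzyme that makes dopamine and serotonin from their precursors, reached 111.5 ± 16.1 CPM per kb. Behind it came Blcap (25.1 ± 3.99), Igf2r (17.0 ± 1.13), Copg2 (8.93 ± 0.0108) and the retrogene Mcts2 (6.42 ± 0.555). In WT testes the order was Mcts2 (32.2 ± 1.85), Copg2 (21.6 ± 0.314), the ankyrin repeat gene Asb4 (17.2 ± 0.0975), the retrotransposon-derived Peg10 (11.1 ± 0.0762) and Blcap (7.37 ± 0.238 CPM per kb).

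Of the 36 genes, 1 had no count in WT testes, 5 had none in WT intestine and 7 had none in WT marrow. A mean above 10 CPM was reached by 13 of the 36 genes in WT testes, 9 in WT intestine and 11 in WT marrow. Usp29, Zim1, Magel2, Slc38a4 and Dcn had no count in any of the 6 marrow libraries. Magel2 had no count in any intestine library and 1 count in total over the 6 testes libraries. The low-count filter kept 25 of the 36 genes in marrow, 25 in intestine and 32 in testes, and the counts of calls below refer to these. Left out in marrow were H19, Igf2, Dlk1, Usp29, Zim1, Magel2, Slc38a4, Rasgrf1, Dcn, Kcnq1 and Asb4, with at most 29 counts over 6 libraries. Left out in intestine were H19, Usp29, Zim1, Peg10, Mest, Plagl1, Phlda2, Ndn, Magel2, Tspan32 and Peg12, with at most 51. Left out in testes were Zim1, Phlda2, Magel2 and Tspan32, with at most 21.

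Between WT tissues most imprinted genes differed, and so did most genes. WT testes against WT intestine gave 30 calls among 32 imprinted genes, 19 higher and 11 lower in testes, where 82.9% of all 20253 genes tested were called (47.6% higher, 35.4% lower). Peg10 had 1242 and 1574 reads in WT testes, against 12 reads in WT.1476 intestine and none in WT.1477 intestine (7.04 ± 0.54 SE on the log2 scale, adjusted p 6.6e-07, edgeR). All its reads in WT intestine came from WT.1476, whose 7 spermatid markers summed to 253.5 CPM, against 9.77 CPM in WT.1477; their part in this difference was not tested. Sgce, the epsilon-sarcoglycan gene next to Peg10, had 274 counts in WT testes and none in WT intestine, so it was at least 51.0-fold higher. Ddc was lower in WT testes by edgeR, at -9.59 ± 0.39 with an adjusted p of 8.8e-09. WT marrow against WT testes gave 28 calls among 34 genes, 9 higher and 19 lower in marrow, beside 86.8% of all genes (35.6% higher, 51.2% lower). Dcn, the matrix proteoglycan decorin, had no count in WT marrow and 1137 in WT testes, and was at least 551-fold lower in marrow. WT marrow against WT intestine gave 22 calls among 32 genes, 10 higher and 12 lower in marrow, beside 75.7% of all genes (37.6% higher, 38.1% lower). Tspan32 had 5002 counts in WT marrow and 2 in WT intestine, a ratio of 1111 with an exact 95% counting interval of 307 to 9174. Without WT.1476 intestine, testes against intestine gave 27 calls and marrow against intestine 20, each among 33 genes. Scaling by library size alone moved the median of all genes by 0.766 (testes against intestine), 0.321 (marrow against testes) and 0.881 (marrow against intestine) on the log2 scale.

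In K36M marrow Peg3, close to absent in WT marrow, was present in both libraries. Ndn, Meg3, Phlda2, Grb10 and Igf2r also rose, while the neighbours H13 and Mcts2, Blcap, Osbpl5, and the neighbours Sgce and Peg10 fell. In all, 17 of 25 imprinted genes were called, 9 higher and 8 lower. Over all 14604 genes tested in this comparison 48.0% were called, 23.5% higher and 24.6% lower. The median log2 fold change of the 25 was 0.04, and that of all genes was -0.02. Of the paternally expressed genes 3 rose and 4 fell among 12, and of the maternally expressed genes 4 rose and 2 fell among 7. Genes whose expressed allele depends on tissue or isoform gave 2 rises and 2 falls among 6.

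Peg3 had 19.2 CPM in each K36M marrow library, 0 and 0.287 CPM in K9M, and 0 and 0.322 CPM in WT. These values rest on 387 and 346 reads in K36M, 0 and 6 in K9M, and 0 and 7 in WT, so K36M lay far above both other groups. The log2 fold change of K36M over WT was 6.83 ± 0.81 (SE; adjusted p 0.00144, edgeR). Its partner Usp29, which shares the promoter region shown above, had no read in any marrow library. Ndn had 7.59 and 4.55 CPM in K36M, 1.32 and 1.24 CPM in K9M, and 0.844 and 1.47 CPM in WT. Both K36M libraries lay above all others, with a log2 fold change over WT of 2.38 ± 0.37 (adjusted p 0.00144, edgeR). Peg12, a neighbour of Ndn that encodes a FRAT family protein, rose by 0.69 ± 0.21 (adjusted p 0.0273, edgeR). Ube3a, a ubiquitin ligase gene of the same domain, had a log2 fold change of -0.08 and was not called. Meg3 had 1.83 and 2.05 CPM in K36M, 0.403 and 0.335 CPM in K9M, and 0.516 and 0.322 CPM in WT. The log2 fold change was 2.20 ± 0.40 (adjusted p 0.00318, edgeR), with K36M above both other groups.

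Among the growth regulators, Phlda2 had 4.01 and 3.22 CPM in K36M, 0.230 and 0.191 CPM in K9M, and 0.938 and 0.736 CPM in WT. The 3 groups were ordered without overlap, K36M highest and K9M lowest. K36M over WT was 2.10 ± 0.32 on the log2 scale (adjusted p 0.00134, edgeR). Grb10, an adaptor that dampens insulin and IGF receptor signalling, had 114 and 148 CPM in K36M, 35.1 and 25.9 CPM in K9M, and 39.9 and 55.3 CPM in WT. Its log2 fold change over WT was 1.46 ± 0.23 (adjusted p 0.0052, edgeR). Igf2r had 113 and 97.2 CPM in K36M, 31.1 and 27.0 CPM in K9M, and 32.2 and 51.0 CPM in WT. It rose by 1.33 ± 0.22 on the log2 scale (adjusted p 0.00548, edgeR), and for both genes K36M lay above the other 4 libraries. Slc22a3, beside Igf2r, had 59.1 and 59.0 CPM in K36M, 57.9 and 62.2 CPM in K9M, and 71.7 and 81.9 CPM in WT, so both mutants lay below WT. It was called for K36M, at -0.38 ± 0.09 (adjusted p 0.00788, edgeR), and 9.31% of its exon bases are shared with another gene. Gnas, the stimulatory G protein alpha subunit, had 34.7 and 34.0 CPM in K36M, 24.0 and 25.4 CPM in K9M, and 25.05 and 24.6 CPM in WT. Its log2 fold change was 0.47 ± 0.09 (adjusted p 0.00449, edgeR). Antisense genes overlap 21.96% of its exon bases, and whether counting used strand is not given, so its values are uncertain.

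Among the genes that fell, H13 had 164 and 154 CPM in K36M, 261 and 281 CPM in K9M, and 264 and 227 CPM in WT. K36M lay below the other 4 libraries, at -0.63 ± 0.09 relative to WT (adjusted p 0.000962, edgeR). Mcts2, a retrogene that lies inside H13, had 3.97 and 4.10 CPM in K36M, 7.88 and 7.65 CPM in K9M, and 7.46 and 7.40 CPM in WT. It fell by 0.88 ± 0.17 on the log2 scale (adjusted p 0.00449, edgeR), and as a copy of Mcts1 its reads may be partly shared. Blcap had 16.3 and 15.3 CPM in K36M, 24.8 and 23.9 CPM in K9M, and 24.8 and 25.1 CPM in WT. Its log2 fold change was -0.66 ± 0.11 (adjusted p 0.00174, edgeR). Osbpl5, which encodes a lipid transfer protein, had 4.61 and 5.32 CPM in K36M, 12.5 and 18.7 CPM in K9M, and 13.9 and 10.5 CPM in WT. At -1.30 ± 0.24 (adjusted p 0.00361, edgeR) it moved against its neighbours Phlda2 and Tspan32, which rose. The 5 other called genes were Sgce at -1.38, Peg10 at -1.32, the zinc finger gene Plagl1 at -1.12, Tspan32 at 0.29 and Peg12, named above. Peg10 had 0.545 and 0.887 CPM in K36M, 0.805 and 0.861 CPM in K9M, and 1.69 and 1.885 CPM in WT. Both mutants thus lay below WT for Peg10. DESeq2 called neither Peg10 (adjusted p 0.088) nor Plagl1 (0.189) for K36M against WT. H19, a maternally expressed non-coding RNA left out by the filter, had 17 and 4 reads in K36M, 2 and 2 in K9M, and none in WT. It was at least 7.89-fold higher in K36M, taking 3 counts over the WT group as the floor and the K36M count as exact.

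**Figure D2:**
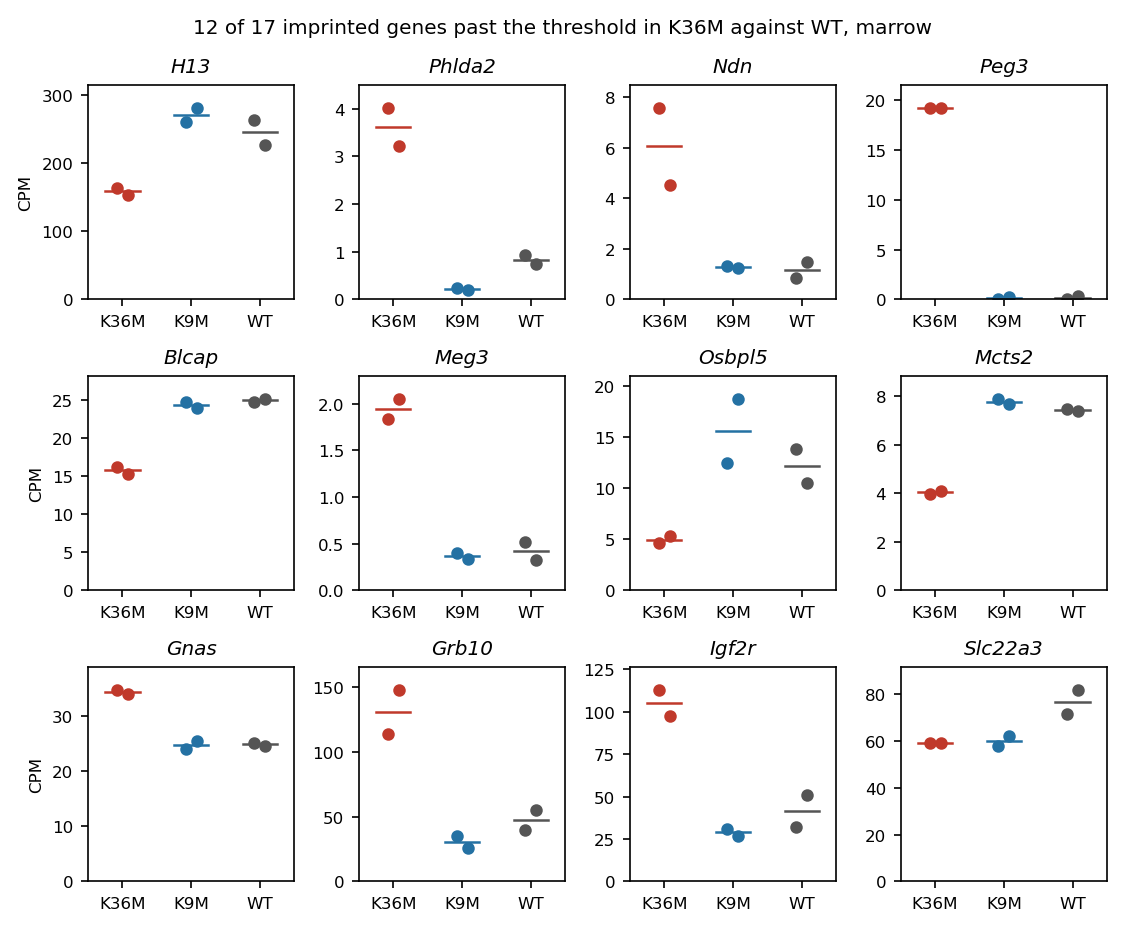
CPM in each marrow library (points) and the group mean (lines) for the 12 imprinted genes with the smallest adjusted p in K36M against WT, with K36M left, then K9M, then WT, each panel starting at 0. Peg3 sits at 19.2 CPM in both K36M libraries and at most 0.322 CPM elsewhere.

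Other cell markers moved in K36M marrow as well. All 8 erythroid markers had counts, and their sum was 1615 and 1568 CPM in K36M, against 450.2 and 646 CPM in WT. All 8 granulocyte and monocyte markers summed to 4916 and 3726 CPM in K36M, against 19100 and 14930 CPM in WT. Of the 10 stem and progenitor markers, Meis1 and Mecom rose and 7 fell. Of 8 endothelial markers 7 were tested, and 6 fell. The part of these lists in the changes of imprinted genes was not tested. Leaving out 1 library at a time left 13 to 17 calls. Plagl1 lost its call without any 1 of the 6 libraries, and Peg12 without K36M.1310 or K36M.1312, K9M.1362 or K9M.1363, or WT.1262. Leaving out K36M.1310 ended the calls of Sgce (adjusted p 0.0691) and Peg10 (0.131), leaving out WT.1266 that of Peg10 (0.0644), and leaving out K36M.1312 those of Slc22a3 (0.0536) and Tspan32 (0.0864; edgeR for all).

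In K36M intestine Ddc fell, and Meg3 and Peg3 rose as they did in marrow. Sgce, Asb4 and Igf2 also rose, and Copg2 and Ube3a fell. In all, 8 of 25 imprinted genes were called, 5 higher and 3 lower, where 23.3% of all 14246 genes tested were called, 11.7% in each direction. The median log2 fold change of the 25 was 0.33, and that of all genes was -0.02. Of the paternally expressed genes 3 of 11 rose and none fell, and of the maternally expressed genes 2 of 8 rose and 1 fell.

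Ddc had 92.8 and 61.7 CPM in K36M intestine, 590.1 and 656 CPM in K9M, and 447 and 548 CPM in WT. K36M lay far below the other 4 libraries, with a log2 fold change over WT of -2.69 ± 0.25 (adjusted p 0.0022, edgeR). Ddc is expressed in gut epithelium and in endocrine cells. All 8 enteroendocrine markers had counts and summed to 469 and 407 CPM in K36M, against 293 and 326 CPM in WT. They did not move one way: Chga and Chgb were called higher, and Gip and Sst lower. The 7 epithelial markers summed to 19030 and 16460 CPM in K36M, against 20680 and 25760 CPM in WT, and their part in the fall of Ddc was not tested. Grb10, next to Ddc, had a log2 fold change of -0.58 and was not called.

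Meg3 had 2.99 and 2.79 CPM in K36M intestine, 0.363 and 0.171 CPM in K9M, and 0.388 and 0.271 CPM in WT. The log2 fold change over WT was 3.08 ± 0.57 (adjusted p 0.0139, edgeR), and K36M lay above both other groups, which overlapped. Peg3 had 5.38 and 6.13 CPM in K36M, 3.73 and 2.23 CPM in K9M, and 2.38 and 1.97 CPM in WT. It rose by 1.40 ± 0.38 (adjusted p 0.0429, edgeR), and in WT it was lower in marrow than in intestine, at -4.57 ± 0.84. Sgce had 1.87 and 1.03 CPM in K36M (25 and 17 reads), 0.155 and 0.0571 CPM in K9M (3 and 1 reads), and no read in WT. It was at least 16.6-fold higher in K36M than in WT (adjusted p 0.0134, edgeR). Asb4, of the same domain, had 0.672 and 3.82 CPM in K36M, 0.414 and 0.343 CPM in K9M, and 0.0485 and 0.271 CPM in WT. Its log2 fold change was 3.87 ± 1.10 (adjusted p 0.0474, edgeR), and the 2 K36M mice differed widely. Igf2 had 12.99 and 4.25 CPM in K36M, 0.311 and 0.400 CPM in K9M, and 2.23 and 2.24 CPM in WT. K36M lay above WT at 1.94 ± 0.56 (adjusted p 0.0491, edgeR), and both K9M libraries lay below WT.

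Copg2 had 16.6 and 28.3 CPM in K36M intestine, 47.1 and 47.3 CPM in K9M, and 45.8 and 45.7 CPM in WT. It fell by 1.02 ± 0.25 on the log2 scale (adjusted p 0.0312, edgeR). Its exons share 17.8% of their bases with Mest on the other strand, so reads of the pair could be divided. Ube3a had 34.7 and 42.3 CPM in K36M, 61.8 and 58.9 CPM in K9M, and 55.0 and 61.9 CPM in WT. Its log2 fold change was -0.60 ± 0.16 (adjusted p 0.0417, edgeR), and K36M lay below both other groups. Slc38a4, an amino acid transporter gene, had 22 reads in K36M intestine and 2 in WT, with an adjusted p of 0.0597 (edgeR).

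**Figure D3:**
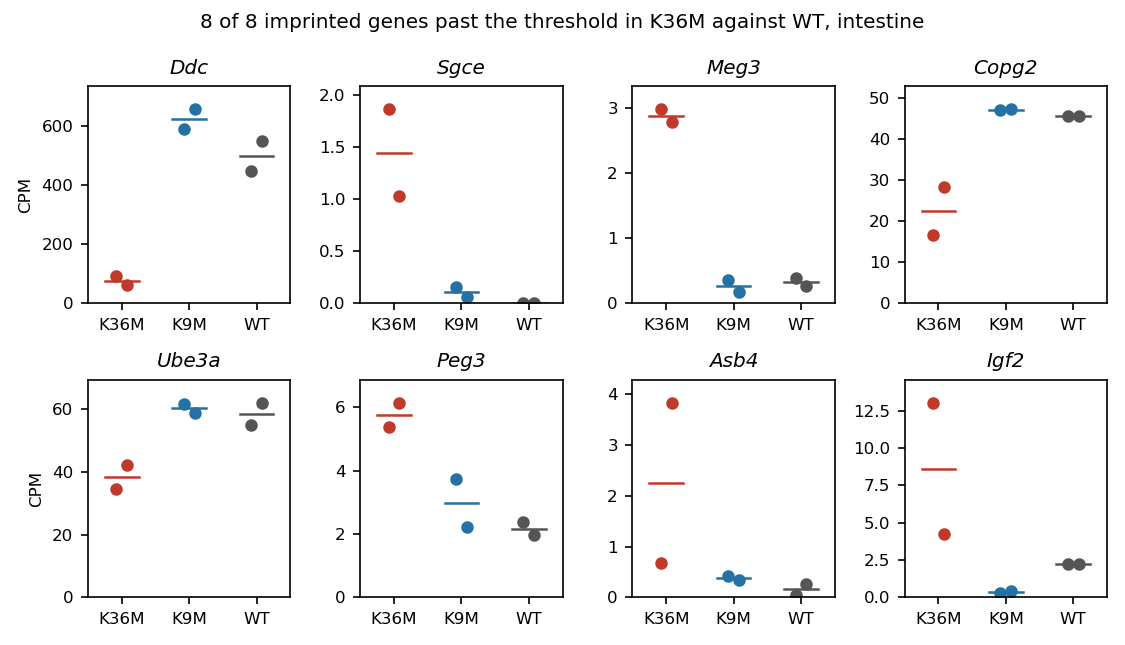
CPM in each intestine library (points) and the group mean (lines) for the 8 imprinted genes called in K36M against WT, with K36M left, then K9M, then WT, each panel starting at 0. Ddc is at most 92.8 CPM in K36M and at least 447 CPM in the other libraries, and the 2 K36M points of Asb4 and Igf2 lie far apart.

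The intestine calls depended on single libraries more than those of marrow. Ddc alone was called when either WT.1476 or WT.1477 was left out. Leaving out K36M.1485 gave 5 calls, and leaving out K9M.1516 or K9M.1519 gave 3 each. Without K36M.1485 the log2 fold change of Igf2 was 0.93 (adjusted p 0.189, edgeR), and without K36M.1553 that of Asb4 was 2.09 (adjusted p 0.255, edgeR). Fibroblast markers summed to 67.1 and 14.6 CPM in K36M intestine, with Lum at 0, against 5.68 and 0.543 CPM in WT, where all 12 had counts. Enteric neuron and glia markers summed to 54.6 and 48.7 CPM in K36M, against 4.17 and 4.61 CPM in WT, with Sox10 at 0. Of those 7 markers 4 were tested, and Ret and S100b were called higher. Leukocyte markers summed to 35.8 and 26.0 CPM in K36M, against 223 and 226 CPM in WT, and 4 of the 5 tested fell (Gzma, Cd3e, Ptprc and Itgam). Of 7 spermatogonia markers, Zbtb16 alone passed the filter on low counts, and it was called higher at 9.84 on the log2 scale. All 7 summed to 75.35 and 45.21 CPM in K36M, against 0.679 and 0.339 CPM in WT. The value of Zbtb16 thus rests on few WT reads, and 1 gene does not identify a cell type. The part of these marker lists in the calls was not tested.

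In K36M testes Dcn, Impact, Peg10, Osbpl5, Gnas, Plagl1 and Peg12 were among the genes that rose, and Rasgrf1, Usp29, Grb10, Copg2, Asb4 and Ube3a fell. In all, 16 of 32 imprinted genes were called, 10 higher and 6 lower. Over all 19160 genes tested 49.5% were called, 25.7% higher and 23.8% lower, so the share of imprinted genes called was near that of all genes. The median log2 fold change of the 32 was 0.22, and that of all genes was 0.02. Of the paternally expressed genes 7 rose and 2 fell among 17, and of the maternally expressed genes 2 rose and 2 fell among 9.

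Dcn had 116 and 108 CPM in K36M testes, 32.4 and 31.4 CPM in K9M, and 30.4 and 29.6 CPM in WT. The log2 fold change of K36M over WT was 1.91 ± 0.12 (adjusted p 0.00241, edgeR). Impact, on chromosome 18, encodes an inhibitor of the kinase GCN2. It had 40.4 and 46.1 CPM in K36M, 11.8 and 12.1 CPM in K9M, and 11.2 and 12.1 CPM in WT. Its log2 fold change was 1.89 ± 0.13 (adjusted p 0.00241, edgeR), and K36M lay above the other 4 libraries for both genes. Peg10 had 191 and 259 CPM in K36M, 82.3 and 75.3 CPM in K9M, and 74.5 and 73.8 CPM in WT. It rose by 1.60 ± 0.17 (adjusted p 0.00247, edgeR). Asb4, of the same domain, had 33.1 and 14.1 CPM in K36M, 76.8 and 58.8 CPM in K9M, and 67.9 and 67.4 CPM in WT. It moved against Peg10, at -1.52 ± 0.37 (adjusted p 0.0174, edgeR), while Sgce, also of this domain, had a log2 fold change of 0.25 and was not called.

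Usp29 had 0.540 and 0.185 CPM in K36M testes (9 and 3 reads), 2.68 and 2.04 CPM in K9M, and 6.06 and 2.81 CPM in WT. The 3 groups did not overlap, and K36M over WT was -3.57 ± 0.58 on the log2 scale (adjusted p 0.00511, edgeR). Peg3, which shares its promoter region, had 10.1 and 17.0 CPM in K36M, 13.1 and 13.9 CPM in K9M, and 12.96 and 12.2 CPM in WT. The 2 K36M values of Peg3 lay on either side of all the others, with a log2 fold change of 0.10 (adjusted p 0.745, edgeR). Rasgrf1, a Ras exchange factor, had 6.96 and 7.15 CPM in K36M, 9.04 and 9.004 CPM in K9M, and 12.9 and 12.8 CPM in WT. Here too the groups were ordered without overlap, at -0.87 ± 0.14 for K36M over WT (adjusted p 0.00496, edgeR).

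Osbpl5 had 11.51 and 16.9 CPM in K36M testes, 7.32 and 7.29 CPM in K9M, and 5.04 and 5.39 CPM in WT, and rose by 1.44 ± 0.22 (adjusted p 0.00417, edgeR). Its direction was opposite to that in marrow. Gnas had 6.72 and 8.08 CPM in K36M, 3.64 and 3.39 CPM in K9M, and 4.02 and 3.28 CPM in WT, a log2 fold change of 1.02 ± 0.20 (adjusted p 0.00867, edgeR). Plagl1, a zinc finger transcription factor, had 10.2 and 12.1 CPM in K36M, 6.70 and 6.06 CPM in K9M, and 6.06 and 6.52 CPM in WT, at 0.83 ± 0.17 (adjusted p 0.00906, edgeR). For all 3 genes K36M lay above the other libraries. Grb10 had 23.0 and 16.7 CPM in K36M, 38.4 and 36.3 CPM in K9M, and 35.6 and 35.3 CPM in WT, and fell by 0.84 ± 0.17 (adjusted p 0.00887, edgeR). Copg2 had 77.4 and 67.9 CPM in K36M, 114 and 102 CPM in K9M, and 112 and 109.7 CPM in WT, and fell by 0.61 ± 0.13 (adjusted p 0.011, edgeR). K36M was below the other libraries for both genes. Peg12 had 1.68 and 1.11 CPM in K36M, 0.383 and 0.407 CPM in K9M, and 0.240 and 0.422 CPM in WT, a log2 fold change of 2.02 ± 0.43 (adjusted p 0.0104, edgeR). The 4 other called genes were Ube3a at -0.75, the retrogene Zrsr1 at 0.73, Mest at 0.88 and Nnat, a membrane proteolipid gene, at 1.13. Mest and Copg2, which overlap, moved in opposite directions, and without strand information their reads cannot be told apart where they overlap.

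**Figure D4:**
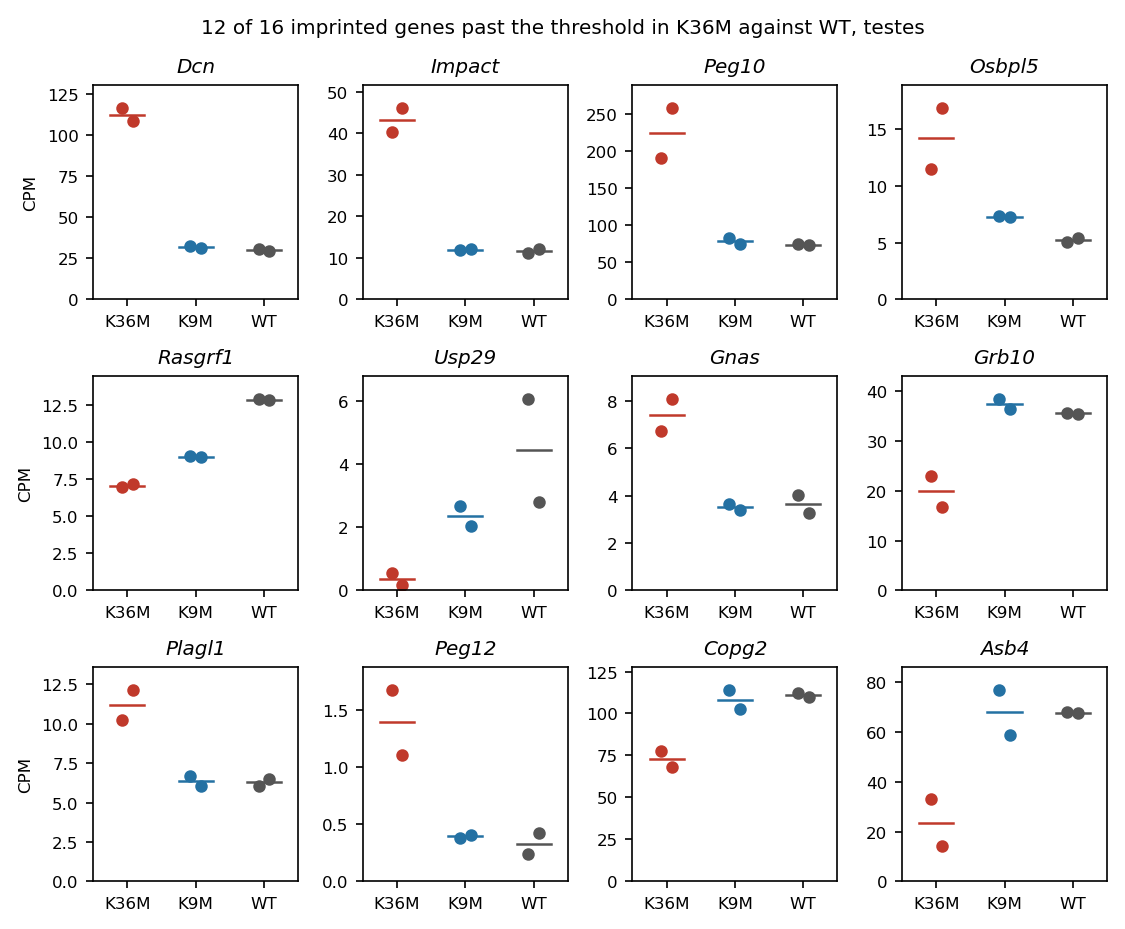
CPM in each testes library (points) and the group mean (lines) for the 12 imprinted genes with the smallest adjusted p in K36M against WT, with K36M left, then K9M, then WT, each panel starting at 0. Dcn, Impact and Peg10 are higher in both K36M libraries than in any other, and Usp29 and Rasgrf1 are lowest in K36M and highest in WT.

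Markers of several testis cell types differed in K36M too. All 8 Leydig cell markers had counts and summed to 82.4 and 53.1 CPM in K36M, 282 and 618 CPM in K9M, and 552 and 458 CPM in WT. The 8 Sertoli cell markers with an ID summed to 2195 and 2973 CPM in K36M, against 855 and 880.1 CPM in WT. Spermatid markers summed to 26170 and 38100 CPM in K36M, against 12380 and 12610 CPM in WT, and their part in the calls was not tested. The 12 fibroblast markers, a cell type that makes decorin, summed to 100.3 and 95.9 CPM in K36M, against 104.6 and 101.6 CPM in WT. Among them Pdgfra rose, and Col3a1, Postn, Col1a2 and Col6a3 fell. Smooth muscle markers summed to 540.3 and 673 CPM in K36M, against 325 and 330 CPM in WT, and 6 of 7 rose. Endothelial markers summed to 44.2 and 43.7 CPM in K36M, against 26.5 and 22.6 CPM in WT, and 4 of 8 rose. Spermatogonia markers summed to 129 and 129 CPM in K36M, against 68.4 and 70.8 CPM in WT, and 4 of 7 rose. Spermatocyte markers summed to 4621 and 4795 CPM in K36M, against 4923 and 4969 CPM in WT. Of these 7 markers Pgk2 rose, and Sycp1, Spo11, Sycp3 and Piwil1 fell. The part of these lists was not tested either. Without WT.1476 or without WT.1477, 5 calls were left: Dcn, Impact, Peg10, Osbpl5 and Usp29.

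In K9M mice no imprinted gene passed the threshold in any tissue (edgeR). In marrow 0 of 25 were called, beside 1.01% of all genes. The unadjusted p of 5 was under 0.05, and DESeq2 made 0 calls. The lowest adjusted p was 0.104, for Phlda2, at -1.97 ± 0.44 on the log2 scale (edgeR). In intestine 0 of 25 were called, beside 0.211% of all genes. Here 3 had an unadjusted p under 0.05, and Igf2 was the 1 call of DESeq2. Igf2 had a log2 fold change of -2.63 ± 0.65 (adjusted p 0.243, edgeR). In testes 0 of 32 were called, beside 0.0678% of all genes. Again DESeq2 made 0 calls, and 2 genes had an unadjusted p under 0.05. These 2 were Rasgrf1 at -0.51 ± 0.14 and Airn, the antisense RNA of the Igf2r domain, at -0.99 ± 0.35. Median log2 fold changes of the imprinted genes were -0.04 in marrow, -0.01 in intestine and 0.01 in testes. Leaving out WT.1262 gave 2 calls in marrow (Igf2r and Slc22a3), leaving out K36M.1553 gave 1 in intestine (Igf2), and leaving out either K36M mouse gave 1 in testes (Rasgrf1).

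Set directly against K36M, K9M marrow differed in 15 of 25 imprinted genes, 6 higher and 9 lower in K9M, beside 53.8% of all genes (27.8% higher, 26.0% lower). Phlda2 showed the smallest adjusted p, at -4.07 ± 0.39 on the log2 scale (adjusted p 0.000154, edgeR). Ddc, not called in either mutant against WT in marrow, had 0.172 and 0.0478 CPM in K9M, against 0.744 and 0.610 CPM in K36M (adjusted p 0.0189, edgeR). That call was lost with DESeq2 and without K36M.1310, K36M.1312 or K9M.1363, with an adjusted p of up to 0.145. In intestine 9 of 25 differed, 3 higher and 6 lower in K9M, beside 25.1% of all genes (12.9% higher, 12.2% lower). Osbpl5 had 2.64 and 4.46 CPM in K9M intestine, against 9.11 and 8.68 CPM in K36M, a log2 fold change of -1.33 ± 0.33 (adjusted p 0.029, edgeR). It was lost under 5 of 12 alternatives, with an adjusted p of up to 0.189. Dlk1, a Notch ligand relative expressed from the paternal allele, had no read in K9M intestine and 41 reads in K36M intestine, 9 in K36M.1485 and 32 in K36M.1553. Over both libraries this made it lower in K9M by at least 16.8-fold. The call was lost when any 1 of these 4 libraries was left out, with an adjusted p of up to 0.185 (edgeR). In testes 14 of 32 differed, 5 higher and 9 lower in K9M, beside 49.2% of all genes (23.9% higher, 25.4% lower). Without K9M.1516 no call was left in testes, and without K9M.1519 there were 3. In intestine 1 call was left without K9M.1516 and 1 without K9M.1519.

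Whether the K36M effect itself differed between tissues was tested over 12 libraries of each tissue pair. Marrow against testes gave 16 differences among 34 genes, 7 higher and 9 lower in marrow, beside 35.3% of all genes (18.0% higher, 17.3% lower). Osbpl5 and Peg10, which fell in marrow and rose in testes, differed by -2.68 ± 0.36 and -2.87 ± 0.30. Grb10, which rose in marrow and fell in testes, differed by 2.35 ± 0.29, and Plagl1, which fell in marrow and rose in testes, by -1.89 ± 0.35. Peg3 differed by 6.78 ± 0.75 (adjusted p 0.000134), and the adjusted p of the other 4 lay at or below 0.002 (edgeR). Marrow against intestine gave 13 among 32 genes, 6 higher and 7 lower in marrow, beside 21.1% of all genes (9.93% higher, 11.1% lower). It fell to 6 calls without K36M.1310 or without K36M.1312 of marrow, and to 7 without WT.1262 of marrow or WT.1477 of intestine. Testes against intestine gave 7 among 32 genes, 2 higher and 5 lower in testes, beside 22.5% of all genes (12.4% higher, 10.1% lower). With the mouse as a block, 2 were left, Sgce (adjusted p 0.0198) and Ddc (0.00443; edgeR), and without WT.1476 or WT.1477 of testes, 3. Without WT.1476 intestine, the K36M effect differed in 9 genes between marrow and intestine and in 5 between testes and intestine.

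**Figure D5:**
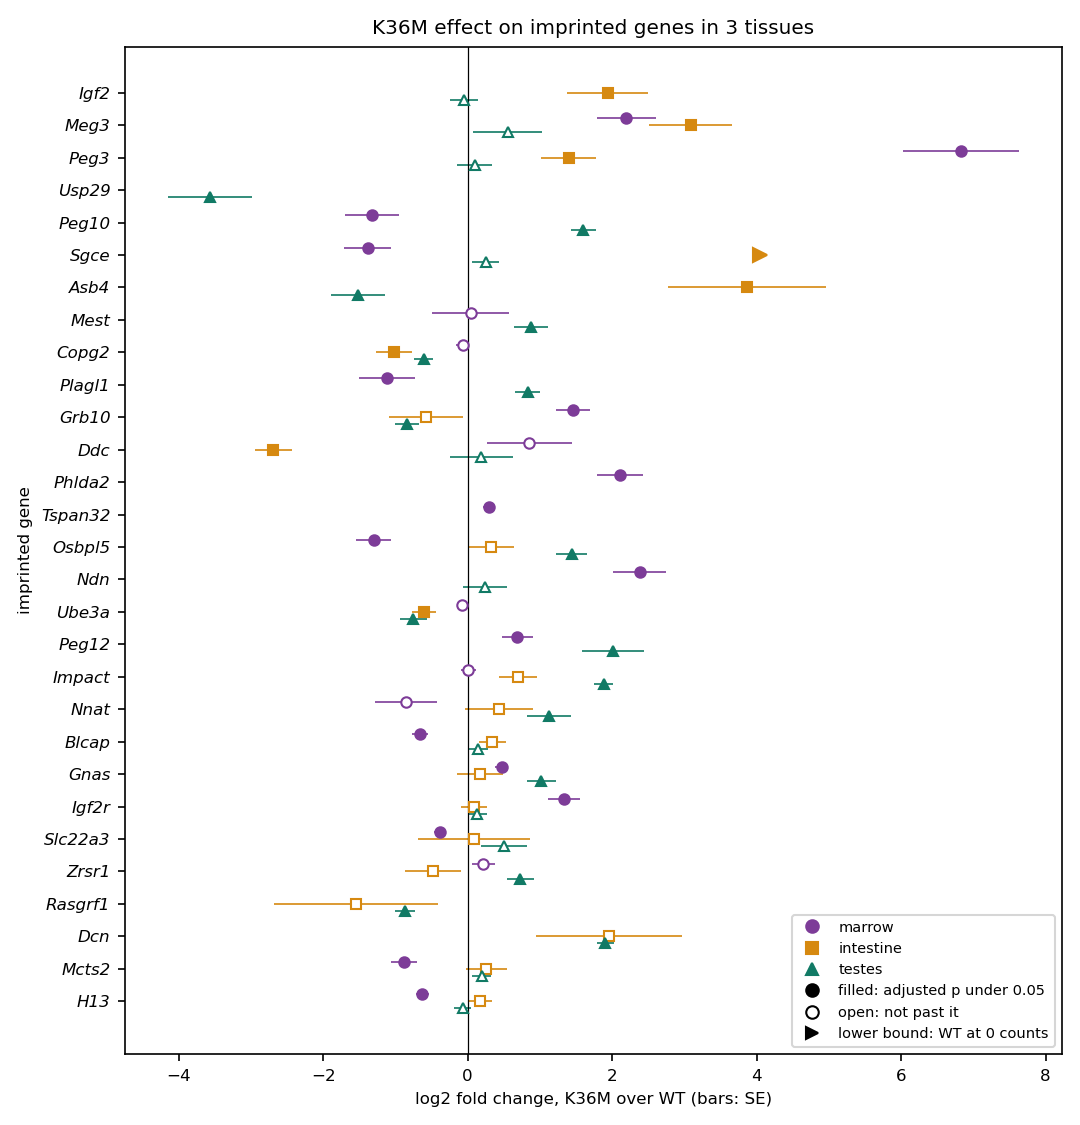
Log2 fold change of K36M over WT with its SE (bars) for the imprinted genes called in at least 1 tissue, with filled symbols for an adjusted p under 0.05 and a triangle pointing right for the lower bound of Sgce in intestine. Peg3 in marrow lies farthest to the right at 6.83, and Osbpl5, Peg10, Grb10 and Plagl1 have filled symbols on opposite sides of 0 in marrow and testes.

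A list of 37 further imprinted genes, outside the set, was read in the same fits. In K36M marrow 10 of 25 tested rose and 5 fell, beside 23.5% (higher) and 24.6% (lower) of all genes. Ppp1r9a, a neurabin gene of the Peg10 domain, had 2.63 and 2.44 CPM in K36M marrow and 27.5 and 35.0 CPM in WT, at -3.62 ± 0.20 (adjusted p 3.3e-05, edgeR). Casd1, of the same domain, fell by 0.72 ± 0.07, and Ago2, the small RNA guided nuclease, rose by 0.82 ± 0.10. In K36M intestine 4 of 25 rose and 3 fell, beside 11.7% of all genes in each direction, with Atp10a at 3.37 ± 0.51, Smoc1 at 3.66 ± 0.61 and the sterol reductase Dhcr7 at -1.16 ± 0.17. In K36M testes 5 of 26 rose and 9 fell, beside 25.7% (higher) and 23.8% (lower) of all genes, with the creatine synthesis enzyme Gatm at 1.07 ± 0.16, Commd1 at -1.20 ± 0.20 and Pon3 at -2.08 ± 0.35. In K9M marrow 1 of 25 was called, Smoc1 at 1.78 ± 0.30 (adjusted p 0.0412, edgeR). In K9M intestine and testes 0 were called by edgeR or DESeq2, with 4 (intestine) and 0 (testes) at an unadjusted p under 0.05 in edgeR.

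Of 30 genes that set or keep imprints, 12 of 28 tested rose and 7 fell in K36M marrow, where 48.0% of all genes were called. The methyl-CpG binding gene Mbd2 rose by 0.75 ± 0.09 and the cohesin subunit gene Rad21 by 0.46 ± 0.06, while the methylcytosine oxidase gene Tet1 fell by 0.98 ± 0.13. In K36M intestine 4 of 27 rose and 2 fell, where 23.3% of all genes were called. Ctcfl, a germ line relative of CTCF, had 7.84 and 3.34 CPM in K36M intestine, against 0.291 and 0.339 CPM in WT, at 4.12 ± 0.76 (adjusted p 0.0136, edgeR). The H3K36 methyltransferase gene Nsd1 rose by 0.62 ± 0.15, and the histone demethylase gene Kdm1b fell by 0.78 ± 0.18. In K36M testes 12 of 29 rose and 8 fell, where 49.5% of all genes were called. Dnmt3a had 41.3 and 47.3 CPM in K36M testes, against 18.6 and 20.1 CPM in WT, at 1.19 ± 0.14 (adjusted p 0.00258, edgeR). The chromatin remodeller gene Atrx rose by 1.33 ± 0.15 and Tet2 by 1.5 ± 0.18. In K9M mice edgeR called 0 in each tissue, with 2 (marrow), 4 (intestine) and 0 (testes) at an unadjusted p under 0.05, and DESeq2 called 0, 2 and 0 in the same order.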

How the data were processed

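PolyA RNA libraries (SMARTer v3) were sequenced on a HiSeq2500, per the labels. The authors deposited unnormalized read counts for each gene. STAR, HTSeq and the mm9 build are named in the submitters' processing notes, and tool versions and strand use are not given in the sources used here. Entries that name no gene (reads in no feature, 9.89% to 26.0% of all entries, ambiguous reads, 2.21% to 4.17%, and reads not unique, 15.3% to 29.1%) stayed out of library sizes and tests. Symbols, exon lengths and overlaps came by gene ID from GENCODE M21 (GRCm38), which named 32897 of 37620 IDs, and promoters from RefSeq. None of its coordinates was joined to the counts.

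Each tissue (6 libraries) and each tissue pair (12 libraries) was fitted in R 4.3.3 with edgeR 4.0.16 (TMM, filterByExpr, robust quasi-likelihood tests on group means), with 3 and 6 residual degrees of freedom. P-values were adjusted by Benjamini-Hochberg over all genes tested, with a threshold of 0.05. Each SE was worked back from the test, as the absolute log2 fold change divided by the square root of its F statistic. Libraries of a group came from separate mice. Intestine and testes are paired by mouse per the labels. Over 20253 genes, the correlation between the tissues of the mice's distances to their group means was -0.00869 in K36M, 0.0703 in K9M and 0.0289 in WT. Values in every library are given for up to 12 called genes per tissue with the smallest adjusted p, the 5 of highest WT level per tissue are named, and from 2 further lists the 3 of smallest adjusted p. The members and lists were chosen with earlier results of these data known. Alternatives were DESeq2 1.42.0, other scaling, other filters (none, or 1 CPM in 2 libraries), the 2 genotypes alone, each library left out and the mouse as a block. The fits were tested on simulated counts with the same spread for every gene, where only genes with many reads were changed. This does not cover genes with few reads or with a wider spread. Counting intervals (95%) and floors (3 counts over a group) cover counting error only. Each floor takes the count of the other group as exact, so the error of that count is not covered. The values of 2 marker genes are not reported here.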

Additional observations from a re-analysis of the deposited data

Results flagged for a closer look

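The K36M effect on 36 pairs of gene and tissue pair differed by the interaction test of edgeR (adjusted p under 0.05). Values are the log2 effect in the first tissue minus that in the second, and where a WT group had no read they depend on the prior count and give no bound. This holds for Sgce and Peg12 against intestine and for H19 in marrow.

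Between marrow and testes the K36M effect on Peg3 differed by 6.78, on H19 by 5.54, on Grb10 by 2.35, on Ndn by 2.20, on Igf2r by 1.26, on Ube3a by 0.73 and on Copg2 by 0.59. It was lower in marrow for Peg10 at -2.87, Osbpl5 at -2.68, Nnat at -1.92, Plagl1 at -1.89, Impact at -1.82, Sgce at -1.58, Mcts2 at -1.02, Blcap at -0.75 and H13 at -0.50.

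Between marrow and intestine the differences were 5.40 for Peg3, 3.87 for Phlda2, 3.53 for Ddc, 2.01 for Grb10, 1.24 for Igf2r and 0.94 for Copg2. They were -9.67 for Sgce, -5.65 for Peg12, -5.42 for Plagl1, -1.64 for Osbpl5, -1.15 for Mcts2, -1.02 for Blcap and -0.81 for H13. Plagl1 had 1 read in K36M.1485 intestine, 19 in K36M.1553 and 1 in WT, so its value rests on K36M.1553. Phlda2 had 4 reads in K36M.1485 intestine, none in K36M.1553, and 9 and 8 in WT. The filter left out both genes where intestine was fitted by itself, and their values rest on few reads.

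Between testes and intestine they were 2.92 for Ddc and 1.24 for Impact, and -7.79 for Sgce, -5.46 for Asb4, -3.65 for Slc38a4, -2.45 for Meg3 and -1.94 for Igf2. The same mice gave both tissues, and with the mouse as a block Ddc and Sgce alone were still called, while the adjusted p of the other 5 lay between 0.0639 and 0.118 (edgeR).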

How the results depend on the processing

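Of 195 pairs of imprinted gene and comparison with a call, 103 kept it under each alternative run, and 2 of 2941 single values reversed, both with library size alone: H13 in WT testes against WT intestine at 0.16 and Mcts2 in WT marrow against WT intestine at 0.34. In intestine K36M against WT gave 8 calls, 3 with the 2 genotypes alone and 14 without a filter. K9M against WT gave 0 calls in each tissue, but 2 in marrow without a filter, 1 in intestine with the 2 genotypes alone, with DESeq2 and without a filter, and 1 in testes with the 2 genotypes alone. With the mouse as a replicate block, the K36M effect in testes minus that in intestine gave 2 calls in place of 7, and WT testes against WT intestine gave 27 in place of 30. Leaving out 1 library gave, for K36M against WT, 13 to 17 calls (marrow), 1 to 6 (intestine) and 5 to 20 (testes). For K9M against WT it gave 0 to 2, 0 to 1 and 0 to 1, and for K9M against K36M 12 to 16, 1 to 9 and 0 to 18. WT tissues gave 25 to 32 (testes against intestine), 25 to 29 (marrow against testes) and 19 to 23 (marrow against intestine). The tissue differences of the K36M effect gave 3 to 8 (testes minus intestine), 13 to 19 (marrow minus testes) and 6 to 14 (marrow minus intestine). The cause of these changes was not tested. Where 1 library of a group was left, its spread was taken from the other groups. With library size alone, the median of all genes moved by -0.146 in testes K36M against WT, 0.14 in testes and -0.13 in intestine K9M against K36M, and -0.241 in testes minus intestine. DESeq2 factors moved it by 0.423 in WT testes against WT intestine and by -0.29 in WT marrow against WT testes. Members with few reads set the limit of depth: those left out by the filter had at most 51 counts over 6 libraries.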
